A study of Mus musculus with 6 samples.

Results

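Heat shock and protein folding chaperones were examined in RNA sequencing of mouse inguinal lymph nodes, as 40 genes chosen by name from the 50559 in the deposited table. All 40 were in the table. They comprised 12 inducible chaperones and co-chaperones of the cytosol, 10 constitutive chaperones of the cytosol and mitochondria, 17 chaperones and quality control proteins of the endoplasmic reticulum (ER), and the heat shock transcription factor Hsf1. The samples formed 2 groups of 3: untreated mice, labelled Control 1 to 3, and mice given the citrus flavonoid naringin at 200 mg/kg per day in their food, labelled Naringin 1 to 3. The sources used here give no strain, sex, age, length of feeding or Control diet. They do not say whether each sample came from a separate animal, so p-values measure only the spread between these samples, which may be technical.

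Chaperones bind unfolded or newly made proteins and help them reach or keep their folded state. In the cytosol, heat or other protein damage frees Hsf1 to bind heat shock elements in DNA and switch on inducible chaperones such as the Hsp70 proteins Hspa1a and Hspa1b, while the related Hspa8 and the Hsp90 protein Hsp90ab1 are made in all cells at all times. In the ER, unfolded proteins activate the unfolded protein response, which raises the Hsp70 protein Hspa5 (BiP), the Hsp90 protein Hsp90b1 and their partners through the ER stress element. Lymph nodes hold plasma cells, which secrete antibody and depend on a large ER, and lymphocytes, which raise many cytosolic chaperones when they are activated.

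Promoters were searched for both elements. RefSeq promoter windows (build GRCm38.p6, 250 bases before to 50 after a start site) matched 33 of the 40 members by symbol. A gene counted if any of its windows matched. The ER stress element, searched on both strands as CCAAT and CCACG with 9 free bases between them, was present in 6 of the 15 ER members with a window (Hspa5, Hsp90b1, Calr, Canx, Pdia6 and Dnajc3) and in 0.137% of all 27025 genes with a window. No window of the cytosolic or mitochondrial members held it. A second form, ATTGG and CCACG with 1 free base between them, was found in Herpud1 and Dnajb11 and in 0.0444% of all genes with a window. The heat shock element of 3 units, GAANNTTC followed after 2 free bases by GAA, was present in Hsph1, Chordc1, Hspd1 and Hspe1 and in 0.662% of all genes with a window. The windows of Hspd1 and Hspe1 overlap and share their matches. The heat shock core of 2 units, GAANNTTC, lies inside every match of 3 units. This core was present in 7 of 11 inducible members, in 3 of 7 constitutive members and in 0 of 15 ER members, against 9.04% of all genes with a window. The 250 bases before the start site follow for 3 inducible and 3 ER members whose values are given in full below, with the motif matches in capitals. Coordinates are those of the RefSeq table and not of mm39, the build the submitters name.
Hspa1a (chr17:34972157-34972406, minus strand): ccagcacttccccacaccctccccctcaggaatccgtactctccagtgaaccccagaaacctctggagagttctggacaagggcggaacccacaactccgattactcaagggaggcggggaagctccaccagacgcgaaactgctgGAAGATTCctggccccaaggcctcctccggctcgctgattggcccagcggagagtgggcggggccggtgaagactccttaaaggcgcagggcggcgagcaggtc
Hspa1b (chr17:34959239-34959488, minus strand): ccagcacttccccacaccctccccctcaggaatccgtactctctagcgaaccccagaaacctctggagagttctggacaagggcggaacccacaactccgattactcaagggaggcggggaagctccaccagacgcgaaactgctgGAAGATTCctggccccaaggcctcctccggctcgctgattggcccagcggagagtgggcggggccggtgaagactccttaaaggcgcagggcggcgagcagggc
Hspb1 (chr5:135887669-135887918, plus strand): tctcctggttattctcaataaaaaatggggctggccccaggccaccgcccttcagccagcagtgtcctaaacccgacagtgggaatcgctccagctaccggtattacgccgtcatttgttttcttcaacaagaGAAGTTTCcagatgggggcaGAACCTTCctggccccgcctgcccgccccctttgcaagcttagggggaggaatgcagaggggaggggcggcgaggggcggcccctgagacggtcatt
Hspa5 (chr2:34771840-34772089, plus strand): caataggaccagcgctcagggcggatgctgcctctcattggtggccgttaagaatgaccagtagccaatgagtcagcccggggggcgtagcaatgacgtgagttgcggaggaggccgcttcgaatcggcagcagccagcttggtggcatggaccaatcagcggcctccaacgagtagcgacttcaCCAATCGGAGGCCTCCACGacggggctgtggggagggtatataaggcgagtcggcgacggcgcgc
Hsp90b1 (chr10:86705445-86705694, minus strand): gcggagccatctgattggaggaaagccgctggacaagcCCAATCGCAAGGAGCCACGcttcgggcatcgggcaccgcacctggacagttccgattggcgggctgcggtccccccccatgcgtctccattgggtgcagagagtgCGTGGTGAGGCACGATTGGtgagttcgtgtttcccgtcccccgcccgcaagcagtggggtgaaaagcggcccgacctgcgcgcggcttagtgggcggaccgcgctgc
Canx (chr11:50325674-50325923, minus strand): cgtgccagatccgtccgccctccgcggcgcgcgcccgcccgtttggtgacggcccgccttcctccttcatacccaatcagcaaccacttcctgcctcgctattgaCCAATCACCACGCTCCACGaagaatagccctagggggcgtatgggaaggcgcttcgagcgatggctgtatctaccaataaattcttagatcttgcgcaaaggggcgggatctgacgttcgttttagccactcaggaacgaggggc
The capitals mark the heat shock core GAANNTTC in the first 3 and the ER stress element, on either strand, in the last 3. Hspb1 and Hsp90b1 each had 2 matches. The Hspa1a and Hspa1b stretches were identical at 247 of 250 bases. Their transcripts are also close copies, and no source used here says how reads that fit both were counted, so the split of reads between them is uncertain. Hspa8, Hsp90ab1 and Hspe1 have processed pseudogenes that could likewise take part of their reads.

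Libraries held 13074180 to 14976422 reads assigned to genes. Values are CPM, the reads of a gene scaled to a common library total. The T cell marker Cd3e was at 156 to 248 CPM, and the 7 skin and muscle markers summed to 6.23 to 8.89 CPM. Control 3 stood apart: over 13956 tested genes with a known exon length, its deviation from the mean of the other 5 libraries had a Spearman correlation of -0.516 with length, while those of the other libraries ran from -0.0395 to 0.404. Long genes thus read low in Control 3 and short genes high. These correlations are across genes, which are not independent replicates. Control 3 is also part of the reference of every other library, so its trend raises their correlations and the contrast is partly built in.

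No chaperone gene differed between the groups beyond the spread of the libraries. Of the 40 members, 0 passed an adjusted p of 0.05 in limma (a linear model with pooled variances, on log2(CPM + 1), Benjamini-Hochberg over 14873 genes), and over all genes tested the count was also 0 (0%). The smallest adjusted p of a member was 0.9996. An unadjusted p under 0.05 was reached by 0 members and by 213 genes in all (1.43%). Count tests on the recovered reads called 0 members in edgeR (0% of all genes) and 0 in DESeq2 (0.0202% of all genes, which is 3), and neither tool put a member at an unadjusted p under 0.05. The 3 naringin values lay above the 3 control values for 4 members, Dnajb4, Chordc1, Hspa4 and Pdia4, and below them for 0, where 3.36% of all genes lay apart upward, 2.29% downward and 5.65% in either direction. With 3 samples a group an exact permutation test on any single gene could not go below p = 0.1.

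**Figure D1:**
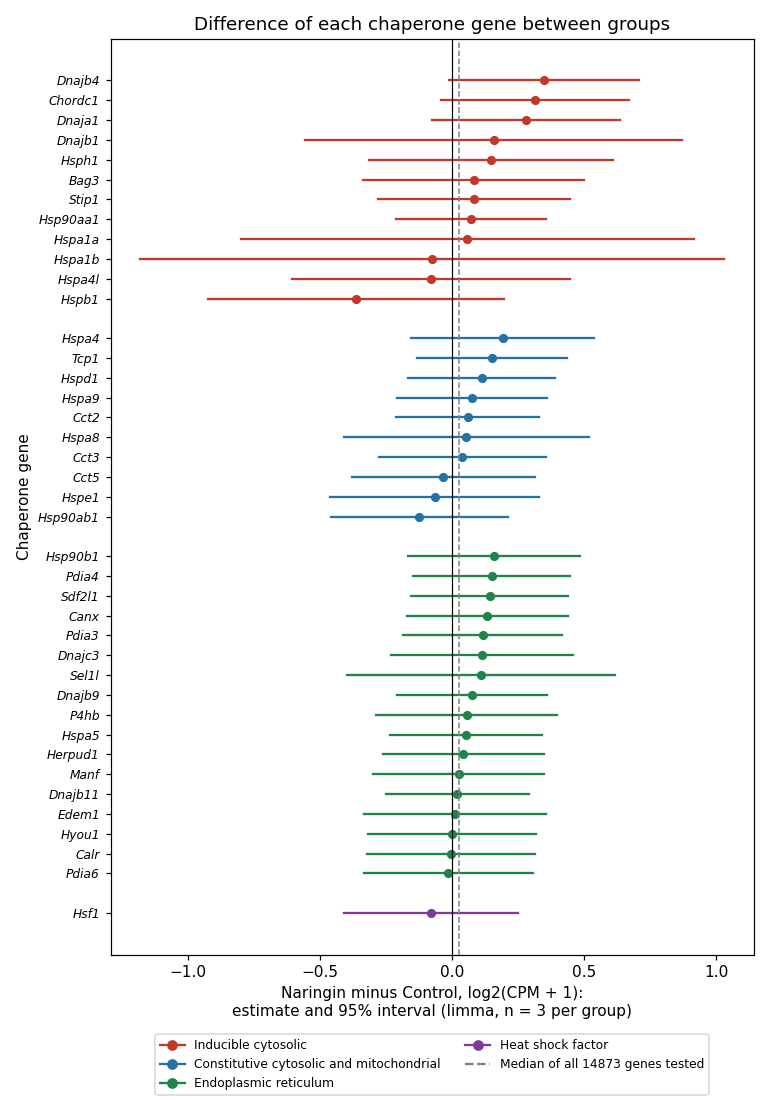
Difference between Naringin and Control for the 40 chaperone genes on the log2(CPM + 1) scale, as points with 95% intervals from limma (n = 3 per group), coloured by class, with the median of all 14873 genes tested as a dashed line. Every interval includes 0; the widest is that of Hspa1b, from -1.18 to 1.03.

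On the log2(CPM + 1) scale the mean under naringin was the larger for 30 of 40 members and the median log2 fold was 0.06, beside 56.7% higher and a median of 0.02 over all genes tested. By class, 9 of 12 inducible (median 0.08), 7 of 10 constitutive (0.06) and 14 of 17 ER members (0.05) were higher. These directions depend on scaling: with upper-quartile scaling 10 of 17 ER, 6 of 10 constitutive and 9 of 12 inducible members were higher, and 45.6% of all genes. The 95% intervals of single members had half-widths of 0.27 to 1.11 on the log2 scale, with a median of 0.33. Differences of that size were not resolved by 3 libraries a group, so the values do not show that the members were at the same level.

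On the log2 scale, inducible chaperones held the largest differences in mean and also the largest median within-group SD of the classes (0.26). Dnajb4, a J-domain protein that hands clients to Hsp70, was at 14.8, 19.1 and 15.8 CPM in Control 1, 2 and 3 and at 23.9, 19.6 and 20.2 CPM in Naringin 1, 2 and 3. The groups did not overlap, but Control 2 and Naringin 2 lay only 0.548 CPM apart. Its log2 fold was 0.35 ± 0.16 (SE, n = 3 per group; limma adjusted p = 0.9996). Chordc1, a co-chaperone of Hsp90, was at 69.4, 73.5 and 53.9 CPM in the controls and at 76.9, 75.7 and 91.5 CPM with naringin. Control 3 was the lowest and Naringin 3 the highest, and the log2 fold of 0.31 ± 0.16 was 0.18 without Control 3. Dnaja1, the most abundant J-domain protein per kilobase of exon among the members, was at 164, 164 and 208 CPM and at 214, 190 and 246 CPM, a log2 fold of 0.28 ± 0.15. Here Control 3 lay inside the naringin range.

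Hspb1 (Hsp25), a small heat shock protein that holds unfolded proteins without using ATP, went the other way in mean. It was at 9.41, 6.79 and 9.69 CPM in Control and at 7.64, 4.41 and 7.70 CPM with naringin. The groups overlapped, and the log2 fold was -0.36 ± 0.24. Naringin 2 alone set the low end, and without it the log2 fold was -0.14.

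The Hsp70 genes that define the heat shock response were low and varied most, with within-group SDs of 0.58 (Hspa1a) and 0.79 (Hspa1b) on the log2 scale. Hspa1a was at 1.61, 0.940 and 4.21 CPM in Control and at 3.08, 1.94 and 1.47 CPM with naringin, and Hspa1b at 2.75, 2.24 and 10.5 CPM and at 6.23, 2.60 and 3.57 CPM. Control 3 was the highest library for both and Naringin 1 the next, so each group held 1 high library and 2 low ones. These values rest on 13 to 63 reads for Hspa1a and 31 to 157 reads for Hspa1b. The exact Poisson 95% interval of Hspa1b was 8.92 to 12.3 CPM in Control 3 and 1.52 to 3.18 CPM in Control 2, so the spread between these controls was larger than counting error, the only error such an interval covers. For Hspa1a the intervals of Naringin 1 (2.26 to 4.11 CPM) and Naringin 2 (1.30 to 2.78 CPM) overlapped, so they did not set these libraries apart. Together Hspa1a and Hspa1b came to 7.41 ± 6.34 CPM in the Control libraries (SD, n = 3) and to 6.30 ± 2.62 CPM in the Naringin libraries (SD, n = 3). Log2 folds were 0.06 ± 0.37 for Hspa1a and -0.08 ± 0.48 for Hspa1b, and their signs turned with single libraries: without Control 3 they were 0.46 and 0.50, and without Control 2 they were -0.25 and -0.42.

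Dnajb1 (Hsp40), the J-domain partner of inducible Hsp70, was singled out after its values were seen because it followed the same order at the top. It was at 55.3, 66.5 and 143 CPM in Control and at 94.5, 82.7 and 93.5 CPM with naringin. Control 3 was 1.82 times the mean of the other 5 libraries, against 2.33 times for Hspa1a and 3.01 times for Hspa1b. Leaving out Control 3 set the groups apart for Dnajb1, with a log2 fold of 0.56 ± 0.11 (limma adjusted p = 0.284), beside 0.16 ± 0.31 with all libraries. Without Control 3, Dnajb1, Dnaja1, Tcp1 and Hspa8 were higher and Hspa4l lower at an unadjusted p under 0.05, 5 of 40 members (12.5%) where 9.4% of all genes were. After adjustment 0 members passed in that fit, and 1 gene of all (0.00671%). Immediate early genes are switched on within minutes of a stimulus. Of 14, 5 were highest in Control 3 (35.7%): Fos, Junb, Ier2, Nr4a1 and Dusp1, with exons of 1522 to 2679 bases. Another 5 were lowest there (35.7%): Fosb, Egr2, Egr3, Zfp36 and Klf6, with exons of 3186 to 4225 bases. Over all genes tested, 24.0% were highest and 36.6% lowest in Control 3. The part of immediate early genes in the chaperone values of that library was not tested.

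**Figure D2:**
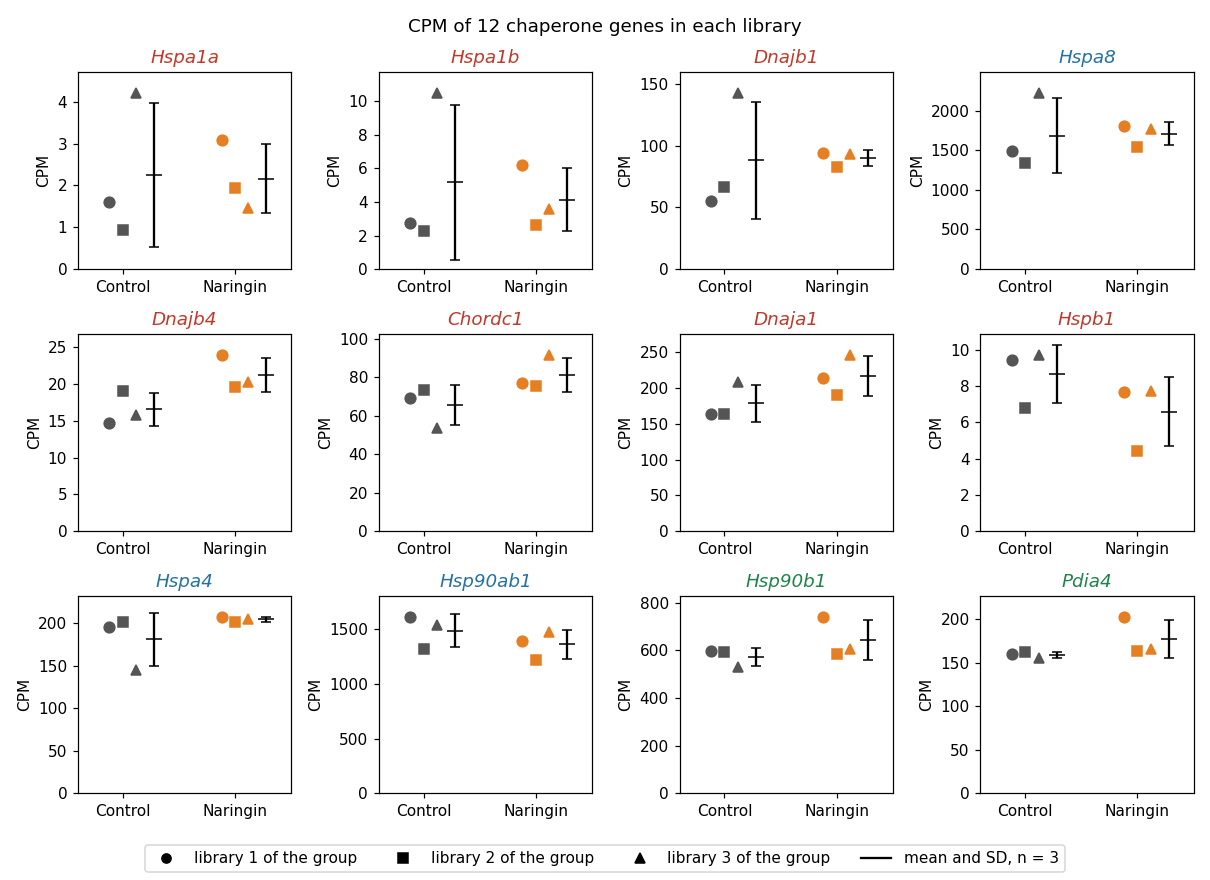
CPM of 12 chaperone genes in each library, with symbols for library 1, 2 and 3 of each group and the mean and SD (n = 3) beside them; title colours mark inducible (red), constitutive (blue) and ER (green) members. Control 3 is the highest library for Hspa1a, Hspa1b, Dnajb1, Hspa8 and Hspb1, and Naringin 1 for Dnajb4, Hspa4, Hsp90b1 and Pdia4.

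The other 5 inducible members, given as means and SDs, had log2 folds from -0.08 to 0.15. They included Hsph1 (Hsp110), which recharges Hsp70 with nucleotide, at 74.1 ± 4.89 and 84.4 ± 25.2 CPM in Control and Naringin, the inducible Hsp90 gene Hsp90aa1 at 324 ± 13.5 and 341 ± 28.5 CPM, the co-chaperone Bag3 of selective autophagy at 14.6 ± 2.93 and 15.4 ± 1.67 CPM, and Stip1, which links Hsp70 to Hsp90, at 132 ± 11.6 and 141 ± 25.7 CPM. Hspa4l, an Hsp110 relative, was at 18.7 ± 5.69 and 17.1 ± 1.37 CPM. Naringin 3 was the highest library for Hsph1 and Stip1. Hsf1 itself was at 65.9, 71.2 and 69.6 CPM in Control and at 57.2, 61.7 and 78.0 CPM with naringin. Its naringin libraries spanned both sides of the controls, with a log2 fold of -0.08 ± 0.14.

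The constitutive class held the most abundant members. Per kilobase of exon, Hspa8 and Hsp90ab1 were the highest of the 40, at means of 708 and 566 CPM per kilobase, and Hspa1b and Hspa1a the lowest, at 1.66 and 0.744. Hspa8 was at 1487, 1339 and 2222 CPM in Control and at 1811, 1543 and 1766 CPM with naringin. Control 3 was again the highest, and the log2 fold of 0.05 ± 0.20 was 0.27 without it. Hsp90ab1 was at 1610, 1316 and 1540 CPM in Control and at 1398, 1217 and 1478 CPM with naringin, a log2 fold of -0.13 ± 0.15, and library 2 was the lowest of each group. All 40 members together took 0.915% to 1.07% of the reads of a library.

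Hspa4, an Hsp110 relative that serves as exchange factor for Hspa8, was at 196, 202 and 145 CPM in Control and at 207, 202 and 205 CPM with naringin. The groups lay apart by 0.238 CPM only, and Control 3 was the library that differed: the log2 fold of 0.19 ± 0.15 was 0.04 without it. In mitochondria, the chaperonin Hspd1 (Hsp60) was at 175, 163 and 185 CPM and at 187, 177 and 200 CPM, a log2 fold of 0.11 ± 0.12. Its partner Hspe1 (Hsp10), which shares a 2-way promoter with it, had a log2 fold of -0.07 ± 0.17, with Control 3 highest at 223 CPM and the others at 149 to 187 CPM. The mitochondrial Hsp70 gene Hspa9 differed by 0.07 ± 0.12.

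The chaperonin ring TRiC folds actin and tubulin and is built of 8 different subunits in equal number. The 4 members among them, Tcp1, Cct2, Cct3 and Cct5, had log2 folds of -0.03 to 0.15. Tcp1 was at 133, 146 and 162 CPM in Control and at 160, 166 and 163 CPM with naringin, so that Control 3 overlapped a tight naringin group. Of the 8 subunits, 5 were highest in Control 3 and 5 lowest in Control 2, while over all genes tested 24.0% were highest in Control 3 and 12.1% lowest in Control 2.

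ER chaperones were the most even class, with log2 folds of -0.02 to 0.16 and a median within-group SD of 0.14 on the log2 scale, beside 0.15 for the constitutive members, 0.26 for the inducible members and 0.23 for all genes. Their summed level was 4116, 4026 and 4082 CPM in Control and 4724, 4023 and 4086 CPM with naringin. Naringin 1 stood above the other 5 libraries, which ran from 4023 to 4116 CPM, and it was the highest library for 10 of 17 ER members (58.8%), where it was the highest for 19.4% of all genes. Of the 34 further unfolded protein response and ER folding genes described below, it was the highest for 2 (5.88%). Control 3 was the highest for 15 of them (44.1%, beside 24.0% of all genes). Serpinh1 and Hspa13, ER genes placed in another list below, were also highest in Naringin 1, at 144 and 33.4 CPM. Of the 6 members with an ER stress element, 5 were highest in Naringin 1, as were 5 of the 9 with a window that lacked it. Without Naringin 1 the class median was 0.02.

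Hsp90b1 (Grp94), which folds integrins and Toll-like receptors, was at 595, 595 and 529 CPM in Control and at 738, 583 and 605 CPM with naringin, a log2 fold of 0.16 ± 0.14. Apart from Naringin 1 its libraries overlapped. Pdia4, a disulphide isomerase, was at 160, 162 and 156 CPM and at 202, 164 and 166 CPM, a log2 fold of 0.15 ± 0.13 that was 0.05 without Naringin 1. Sdf2l1, a partner of BiP and the ER J-domain proteins, was at 44.4, 41.3 and 45.2 CPM and at 53.6, 42.9 and 48.5 CPM, a log2 fold of 0.14 ± 0.13. Canx (calnexin), the membrane lectin that retains unfinished glycoproteins, was at 345, 340 and 295 CPM and at 397, 340 and 338 CPM, a log2 fold of 0.13 ± 0.13, with Control 3 low. In all 4, Naringin 1 was the highest library, and without it the log2 folds of Hsp90b1, Sdf2l1 and Canx were 0.05, 0.06 and 0.06. Hspa5, the master chaperone of the ER, was at 401, 371 and 418 CPM in Control and at 447, 402 and 386 CPM with naringin, so the groups overlapped and the log2 fold was 0.05 ± 0.13. Calr (calreticulin), the soluble relative of calnexin and the highest ER member per kilobase of exon, differed by -0.00 ± 0.14 on the log2 scale, at 765 ± 40.4 and 766 ± 92.2 CPM. Hyou1, an ER exchange factor of the Hsp110 family, and Edem1, which marks misfolded glycoproteins for disposal, had log2 folds of -0.00 and 0.01.

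**Figure D3:**
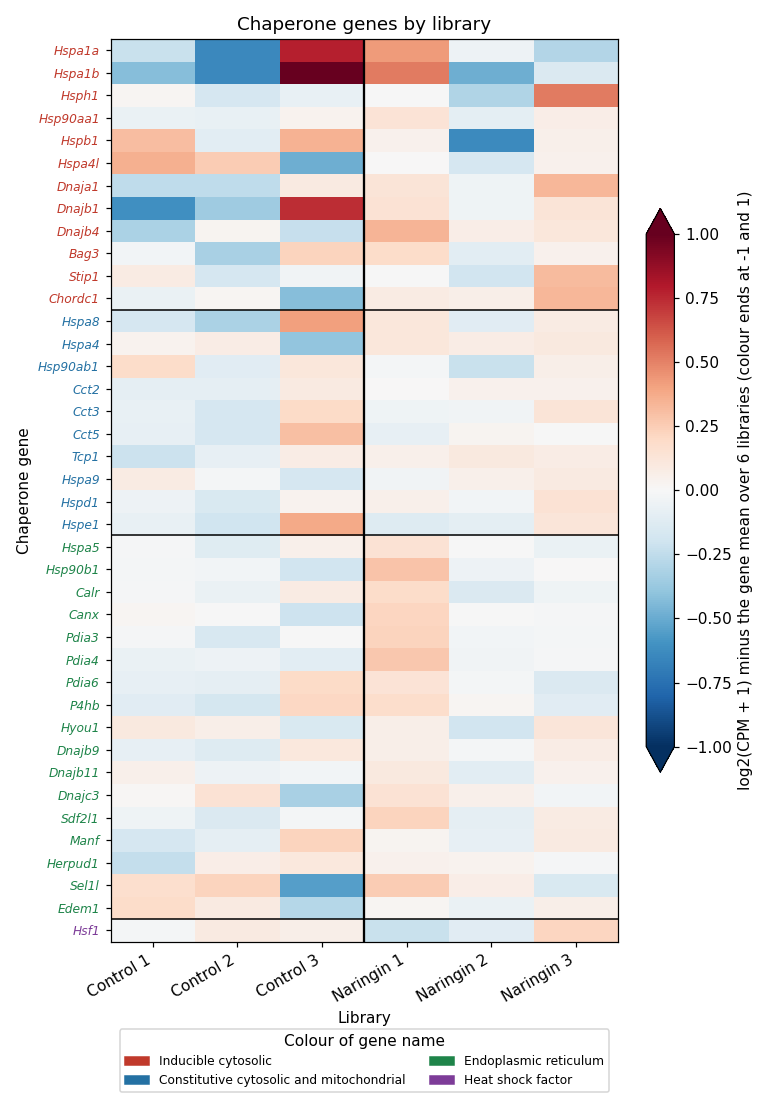
The 40 chaperone genes (rows, in 3 classes plus Hsf1) in the 6 libraries (columns), coloured by log2(CPM + 1) minus the gene's mean over the libraries. Control 3 is high for Hspa1a, Hspa1b and Dnajb1 and low for Sel1l, Hspa4l and Chordc1, and Naringin 1 is the highest library for 10 of 17 ER members.

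Markers of ER-rich and other cells were set beside these values. The 13 plasma cell markers summed to 821 to 923 CPM, with Naringin 1 at 879 CPM inside the control range of 821 to 916 CPM. The largest terms of that sum on average were Pou2af1, at 184 to 254 CPM, and Txndc5, at 153 to 184 CPM. It therefore does not speak for each marker. The joining chain gene Jchain ran from 47.0 CPM in Control 1 to 172 CPM in Control 3, with Naringin 1 at 112 CPM. Of the 12 tested, 4 were highest in Control 3 (33.3%, beside 24.0% of all genes). Derl3 alone was highest in Naringin 1 (8.33%, beside 19.4% of all genes). The 9 macrophage markers summed to 2272 CPM in Naringin 1 and to 781 to 1999 CPM in the other libraries, and 5 of the 7 tested were highest there. Of 12 stromal and endothelial markers, 7 were also highest in Naringin 1 (58.3%), among them Col1a1 and Lyve1, each at 148 CPM against at most 87.9 and 100.02 CPM in the other libraries. The part of macrophage, stromal or endothelial content in the ER values of Naringin 1 was not tested. In whole nodes, fewer cells of a type and less RNA per cell cannot be told apart.

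Among the members, too, Control 3 went with exon length. Its deviation from the mean of the other 5 libraries had a Spearman correlation of -0.597 with length over the 40 genes, which share 1 library. The other libraries, whose reference includes Control 3, had 0.0111 to 0.388. The 6 lowest, Sel1l, Hspa4l, Chordc1, Hspa4, Dnajc3 and Edem1, with exons of 4618 to 9618 bases, were at 0.624 to 0.785 times the mean of the others, and Hspe1, with 774 bases, at 1.36 times. Hspa1b, Hspa1a and Dnajb1 did not follow that order and deviated by 1.42, 0.94 and 0.88. Their exons of 2803 to 3204 bases lie where the median gene of Control 3 deviated by about 0. That median was 0.0013 in the fifth length decile and -0.07 in the sixth. It gives no spread of single genes, and the part of length in the values of Hspa1b, Hspa1a and Dnajb1 was not tested. After a correction for exon length, 0 members passed and the class medians were 0.07, 0.04 and 0.04 for inducible, constitutive and ER members.

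**Figure D4:**
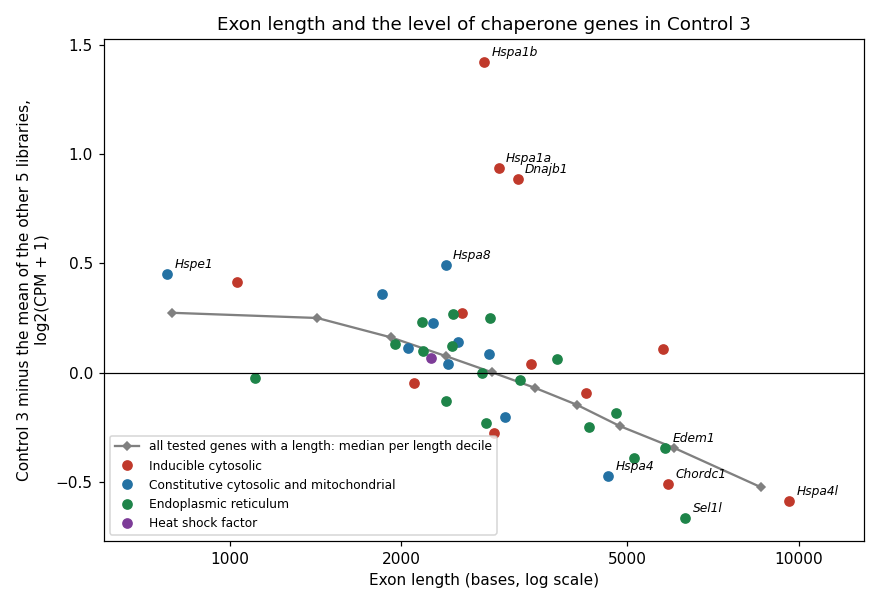
Deviation of Control 3 from the mean of the other 5 libraries on the log2(CPM + 1) scale against exon length in bases (log axis), for the 40 chaperone genes by class and as the median of each length decile of all tested genes (grey line). The grey line falls from 0.27 to -0.52; Hspa1b, Hspa1a and Dnajb1 lie above it, at 1.42, 0.94 and 0.88.

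The rest of the folding machinery was followed in 3 further lists, in which 0 genes passed. Of 28 other heat shock and co-chaperone genes, 13 were higher and 15 lower in mean, with a median log2 fold of -0.01. This list is mainly cytosolic but holds the ER genes Serpinh1 and Hspa13. The small heat shock protein Hspb6 averaged 6.92 ± 0.891 CPM in the controls and 4.78 ± 0.426 CPM under naringin, a log2 fold of -0.45 ± 0.18 (limma adjusted p = 0.9996), and its groups did not overlap. Dnaja2, a constitutive J-domain protein, was at 139 ± 8.62 and 159 ± 7.19 CPM. Of 18 other chaperonin and mitochondrial genes, 7 were higher and 11 lower (median -0.00), and the smallest unadjusted p belonged to the mitochondrial disaggregase Clpb, with a log2 fold of -0.22 ± 0.16, and the ring subunit Cct6a, with 0.15 ± 0.11. Of 34 other genes of the unfolded protein response and ER folding, 22 were higher and 12 lower (median 0.03). Their sum was 2976 CPM in Naringin 1 and 2816 to 3027 CPM in the other libraries. The ER oxidase Ero1a had a log2 fold of 0.33 ± 0.16 and the stress-induced pseudokinase Trib3 one of -0.31 ± 0.18. Among the transcription factors of the response, Xbp1 was at 117 ± 19.1 and 127 ± 9.71 CPM, a log2 fold of 0.13 ± 0.15, and Atf6 at 46.5 ± 8.90 and 51.9 ± 6.10 CPM, a log2 fold of 0.17 ± 0.17. Atf4 was at 185 ± 17.8 and 194 ± 15.5 CPM and Ddit3 (CHOP) at 29.1 ± 4.02 and 28.1 ± 4.51 CPM. The groups overlapped for all 4. In the order given, the 3 lists held 1, 1 and 0 genes whose groups lay apart upward and 2, 0 and 2 downward. Over all genes tested, 3.36% lay apart upward and 2.29% downward. Dnaja2 and Cct6a were among those apart upward, and Hspb6 and Trib3 among those apart downward.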

How the data were processed

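RNA sequencing libraries of 6 lymph node samples were used. Per the submitters' processing notes, the tools were Trimmomatic 0.39, STAR 2.7.9a, featureCounts of Subread 1.6.0 and edgeR 3.40.0, with genome build mm39; the sources used here do not give the annotation, strand setting or counting of shared reads. The authors deposited CPM for 50559 genes, each column scaled to the same total. All values above 0 (100%) were whole multiples of 1 read within 0.01 of a read, so the reads were recovered. The 14873 genes averaging 1 CPM or more over the libraries were tested on log2(CPM + 1) with limma 3.58.1 (trend, robust, 2-sided, all 6 libraries, no covariates) in R 4.3.3, with Benjamini-Hochberg adjustment at 0.05; a log2 fold on this scale understates the change of low genes. The edgeR 4.0.16 quasi-likelihood test with TMM and the DESeq2 1.42.0 Wald test ran on the recovered reads. The limma, edgeR and DESeq2 fits, but not the alternatives below, were also run on simulated reads with known changes. Those changes were larger than any seen in the members, and the simulated libraries held no length trend. Other pseudocounts, filters, scalings, a replicate block and each library left out were the alternatives; the exon length correction was chosen after seeing the data. Exon lengths came from GENCODE M21, for 93.8% of tested genes and 100% of members.

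The members and lists were chosen with earlier results of these data known. Values in every library are given for Hspa1a, Hspa1b, Hsf1, Hsp90ab1, Hspa8 and Hspa5 and for the 4 members with the smallest p of each class, single values for exceptions, and 2 genes are named for each further list. Xbp1, Atf6, Atf4, Ddit3, Serpinh1, Hspa13, Col1a1, Lyve1, Jchain, Derl3, Pou2af1, Txndc5, Dnajb1 and the named immediate early genes fall outside that rule and were picked with their values known. No 2 libraries were alike within sampling noise, with a chi-square per degree of freedom of at least 7.68 between them.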

Additional observations from a re-analysis of the deposited data

How the results depend on the processing

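Of the 40 members, 0 passed under any setting tried. Over all genes, DESeq2 called 3, leaving out single libraries gave 0 to 1 (1 without Control 3), and every other setting gave 0. Class medians of the log2 fold moved by less than 1 SD of the library medians under every setting tried, and with single libraries left out they ran from 0.02 to 0.20 (inducible), -0.01 to 0.11 (constitutive) and 0.02 to 0.10 (ER). Among the 17 members with values in every library by rule, the sign of Hspa1a turned in edgeR (-0.10) and DESeq2 (-0.11) and that of Hspa8 in DESeq2 (-0.0086); the cause was not tested. With single libraries left out, Hspa1a ran from -0.25 to 0.46, Hspa1b from -0.42 to 0.50, Hspa8 from -0.094 to 0.27, Hspa5 from -0.0093 to 0.10 and Hsf1 from -0.21 to 0.011, and the other 12 of them kept their direction under every setting tried. Of the remaining 23 members, 18 turned sign under at least 1 setting; it turned in edgeR for Edem1 (-0.0053), in DESeq2 for Edem1 (-0.019), Manf (-0.0083) and Dnajb1 (-0.0015), and without Control 3 for Cct5 (0.11), Hspe1 (0.10), Calr (0.04), Pdia6 (0.08), Dnajc3 (-0.02), Sel1l (-0.14) and Edem1 (-0.13). Hspa1a and Hspa1b gave no value under a minimum mean of 5 CPM. Libraries with the same replicate number did not deviate together (correlations across genes of -0.257, -0.019 and -0.269). Such correlations read only expression, so they cannot show whether the samples were handled in pairs. With the replicate block 0 members and 0 genes passed, and the class medians were 0.08, 0.06 and 0.05. In that fit 157 genes had an unadjusted limma p under 0.05 in place of 213. Depth limits Hspa1a and Hspa1b most, with as few as 13 and 31 reads in a library.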
